A study of Mus musculus with 10 samples.

Results

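The genes described here are 10 regulators and markers of epithelial-mesenchymal transition (EMT): the transcription factor genes Snai1, Snai2, Zeb1, Zeb2, Twist1 and Twist2, and the genes Vim, Cdh2, Cdh11 and Fn1, whose products mark mesenchymal cells. They were chosen by symbol, by matching the Ensembl identifiers of the count tables to GENCODE M21, and all 10 were found among 38924 genes, of which 37607 had a symbol. All 10 passed the expression filter in every comparison. Positions are those of mm10.

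In EMT, epithelial cells loosen the junctions that hold them in a sheet, lose apical polarity and become motile. Proteins of the Snail and Zeb families are zinc finger repressors that bind E-box sequences in the promoters of epithelial genes such as Cdh1 (E-cadherin), and Twist proteins are basic helix-loop-helix factors that pair with E proteins. In the classical account, mesoderm and definitive endoderm both arise from epiblast cells that pass through EMT at the primitive streak. Endoderm cells are then held to join an epithelium again, while cardiac and haematopoietic mesoderm remain mesenchymal as they migrate. The extent to which endoderm cells pass through EMT was not tested here.

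RNAseq was performed on 10 samples sorted at day 5 from 1 mESC line, Foxa2-hCD4, in which a truncated human CD4 is made from the Foxa2 locus. All groups carry this tag. Cardiac cultures (Activin A at 8 ng/ml, with BMP4 and VEGF) gave 3 samples of Kdr+ Pdgfra+ cardiac mesoderm that was Foxa2+ (Foxa2+ CM), 3 that were Foxa2- (Foxa2- CM) and 2 of cells labelled Flk1+ high, Flk1 being another name of Kdr. The study describes these last cells as haematopoietic mesoderm. Endoderm cultures (Activin A at 75 ng/ml) gave 2 samples of hCD4+ endoderm, so endoderm differs from the other groups by its culture as well as its cell type, and the contributions of culture and cell type cannot be told apart. Replicates are only numbered in the labels, so p-values measure the spread between these samples, which may be technical.

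Counts on genes totalled 10926284 to 17470126 per sample, and 3 counts, taken as the floor of detection, stood at 0.169 to 0.28 counts per 1000000 (CPM, relative to the library size after TMM normalisation). This floor allows for counting error alone. Each group was highest for the summed markers of its label. The lists hold genes used in sorting (Foxa2, Pdgfra and Kdr), so part of each sum follows from the gates. The summed level of 8 endoderm markers was 805 and 1060.2 CPM in endoderm and 240.2 to 312 CPM in the other 8 samples, that of 8 cardiac mesoderm markers was 713 to 1017 CPM in CM and at most 364 CPM elsewhere, and that of 10 haemato-endothelial markers was 2032 and 2276 CPM in Flk1+ high and at most 1070.2 CPM elsewhere. Endoderm was also highest for 7 pluripotency markers (581 and 549.9 CPM) and for 7 neural and neural crest markers (54.2 and 67.4 CPM). The neural and neural crest markers did not rise as a set. Of 5 tested, 1, Foxd3 (log2 fold change 12.5), was higher and 1, Ngfr (-1.99), lower in endoderm than in Foxa2+ CM. Over all genes tested these shares were 18.3% and 16.7%. Foxa2- CM replicate 3 stood apart from Foxa2- CM replicates 1 and 2, with the endothelial gene Tek at 30.6 CPM against 1.92 and 3.25 CPM. Replicate 3 differed in both CM groups, with haemato-endothelial sums of 1070.2 (Foxa2+) and 1030.0 CPM (Foxa2-) against 774 to 867 CPM in the other CM samples. Results within CM are therefore also given without Foxa2- CM replicate 3 or without replicate 3 of both CM groups.

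Because Snail and Zeb proteins bind the E-box CAGGTG, which reads CACCTG on the opposite strand, the promoters of these genes and of a list of 27 epithelial genes were searched for these letters, in either orientation. RefSeq promoters of GRCm38.p6 (250 bases before to 50 after a start site) were at hand for 18 of the 27 epithelial genes, and 16 of these 18 genes (88.9%) held the motif in at least 1 promoter. Over all genes with a promoter sequence the share was 22.6% (6098 of 27025), and over all promoters 20.2%. In the 22-gene list of mesenchymal matrix genes 1 of 13 genes with a sequence held it. Among the 10 EMT genes a sequence was at hand for Snai1, Twist1, Twist2, Vim and Zeb2, and Snai1 alone held the motif. A match is a description of the letters and says nothing of binding in these cells.

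The promoters of Snai1, as the matching EMT regulator, and of Epcam and Cldn6, as epithelial genes that were higher in endoderm than in every mesoderm group, are shown for the 250 bases before the start site, 5′ to 3′, with each match in capitals. That of Snai1 (plus strand, chr2:167537945-167538194) held 1 match, 126 to 121 bases before the start. That of Epcam (plus strand, chr17:87635729-87635978), which encodes an epithelial adhesion molecule, held 2, the nearer of them 19 to 14 bases before the start. That of Cldn6 (plus strand, chr17:23679115-23679364), which encodes a tight junction claudin, held 1 in this stretch, 93 to 88 bases before the start.
Snai1: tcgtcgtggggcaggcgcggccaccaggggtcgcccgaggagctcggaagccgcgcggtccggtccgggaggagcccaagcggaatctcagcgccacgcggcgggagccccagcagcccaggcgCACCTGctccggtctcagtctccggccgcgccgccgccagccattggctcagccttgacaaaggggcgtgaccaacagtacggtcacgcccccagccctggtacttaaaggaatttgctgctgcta
Epcam: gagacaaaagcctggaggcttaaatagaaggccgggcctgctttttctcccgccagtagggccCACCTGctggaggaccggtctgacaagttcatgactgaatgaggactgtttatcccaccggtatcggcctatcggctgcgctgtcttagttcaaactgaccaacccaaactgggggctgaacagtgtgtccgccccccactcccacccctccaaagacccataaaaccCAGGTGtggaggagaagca
Cldn6: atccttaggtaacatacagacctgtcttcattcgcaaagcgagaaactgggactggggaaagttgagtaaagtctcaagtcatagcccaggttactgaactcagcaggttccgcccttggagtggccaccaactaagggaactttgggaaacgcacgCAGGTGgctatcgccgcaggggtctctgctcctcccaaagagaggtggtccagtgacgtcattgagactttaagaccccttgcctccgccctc

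The levels of the 10 genes in every sample showed different orders of the groups from gene to gene. One test over all 4 groups (edgeR's quasi-likelihood test, all 10 samples in 1 model, Benjamini-Hochberg adjustment over 16180 genes, called at an adjusted p below 0.05) called 9 of the 10, all but Vim (adjusted p = 0.182). Of all genes tested 44.2% were called, so a call was common. Endoderm stood lowest for 7 of the 10 genes, Flk1+ high lowest for Snai1, Cdh2 and Cdh11, and Cdh2 was highest in endoderm.

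**Figure D1:**
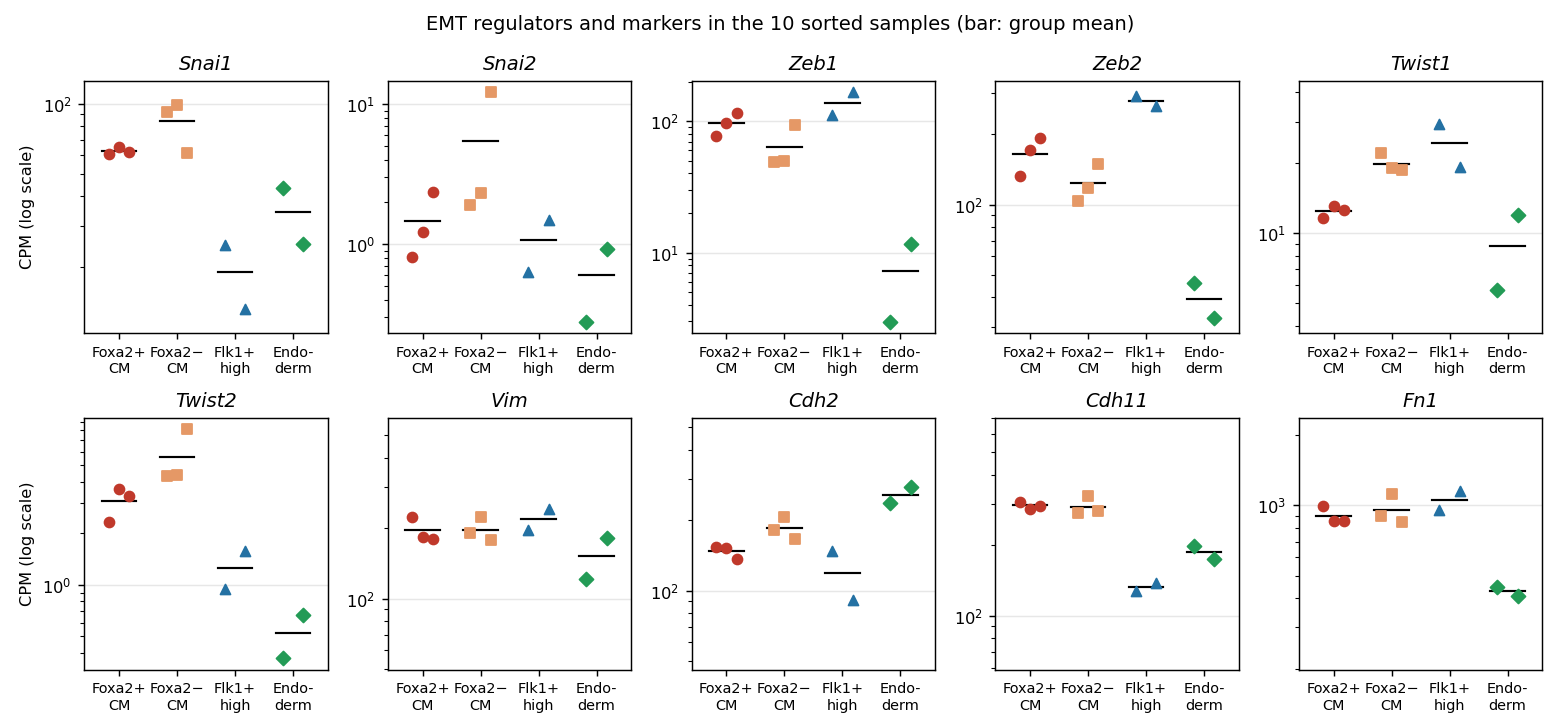
Level of each of the 10 EMT genes in CPM on a log scale (y axis, range set per gene) in the 4 sorted groups (x axis). Each point is a sample and each bar the group mean. Zeb1 lay at 2.98 and 11.54 CPM in endoderm and at 49.3 to 165 CPM in the other 8 samples, and Cdh2 lay at 238 and 278 CPM in endoderm, above its level in every other sample.

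Of the Snail family genes, Snai1 exceeded Snai2 per length in every sample. Snai1 (ENSMUSG00000042821.7, chromosome 2, 167538195 to 167542814, plus strand) was at 60.7, 65.3 and 61.7 CPM in Foxa2+ CM, at 92.3, 98.1 and 61.7 CPM in Foxa2- CM, 43.4 and 24.9 CPM in endoderm and 24.7 and 13.2 CPM in Flk1+ high. All 6 CM samples lay above all 4 others, and the endoderm and Flk1+ high samples lay next to each other without overlap. Snai1 was lower in Flk1+ high than in Foxa2+ CM by a log2 fold change of -1.72 (SE 0.32, adjusted p = 0.00481) and than in Foxa2- CM by -2.14 (SE 0.32, adjusted p = 0.00187), both from edgeR's quasi-likelihood test. In endoderm it was lower than in Foxa2+ CM (-0.88, SE 0.30, adjusted p = 0.0492) and than in Foxa2- CM (-1.30, SE 0.31, adjusted p = 0.0111). The first of these endoderm calls was lost in 6 of 10 fits that left out 1 sample, namely any Foxa2+ CM replicate, Foxa2- CM replicate 1 or 2, or endoderm replicate 2, with an adjusted p of up to 0.254, and the other without endoderm replicate 2 (adjusted p = 0.08). Endoderm and Flk1+ high, the lower groups, did not differ by the test (0.84, SE 0.34, adjusted p = 0.0852), except without endoderm replicate 2 or Flk1+ high replicate 1.

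Snai2 (ENSMUSG00000022676.6, chromosome 16, 14705852 to 14709385, plus strand) was close to the floor, with 11, 21 and 42 counts in Foxa2+ CM, 31, 29 and 215 in Foxa2- CM, 3 and 11 in endoderm and 10 and 19 in Flk1+ high. In CPM these were 0.804, 1.22 and 2.37 in Foxa2+ CM, 1.92, 2.30 and 12.1 in Foxa2- CM, 0.28 and 0.920 in endoderm and 0.627 and 1.496 in Flk1+ high. The high value was that of Foxa2- CM replicate 3, where Tek also stood out; the part of its endothelial transcripts in this value was not tested. Of the 6 comparisons only endoderm against Foxa2- CM was called (-3.16, SE 1.02, adjusted p = 0.0429), and this call was lost in 5 of 10 fits with 1 sample left out (Foxa2+ CM replicate 1 or 2, Foxa2- CM replicate 3, or either endoderm replicate; adjusted p up to 0.224). Per length, the ratio of Snai1 to Snai2 was 6.34 in Foxa2- CM replicate 3 and 11.02 to 194 in the other 9 samples.

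Zeb1 and Zeb2 were both lower in endoderm than in each mesoderm group. Zeb1 (ENSMUSG00000024238.7, chromosome 18, 5591860 to 5775467, plus strand) was at 77.2, 97.4 and 115 CPM in Foxa2+ CM, at 49.3, 49.6 and 92.8 CPM in Foxa2- CM, 2.98 and 11.54 CPM in endoderm and 112 and 165 CPM in Flk1+ high. Endoderm lay below every mesoderm sample, while the CM groups overlapped through Foxa2- CM replicate 3. Zeb1 was 18.7-fold lower in endoderm than in Flk1+ high (log2 fold change -4.23, SE 0.54, adjusted p = 0.000393), 13.1-fold lower than in Foxa2+ CM (-3.71, SE 0.51, adjusted p = 0.00056) and 8.68-fold lower than in Foxa2- CM (-3.12, SE 0.51, adjusted p = 0.00162), and these calls held in all 10 fits that left out 1 sample. Flk1+ high exceeded Foxa2- CM by 1.11 (SE 0.40) without passing the test (adjusted p = 0.0765), and passed it without Foxa2- CM replicate 3 or on leaving out either endoderm replicate. The 2 endoderm samples differed from each other, replicate 2 being the higher for Zeb1, for the haemato-endothelial markers (104 against 52.7 CPM, summed) and for the cardiac mesoderm markers (207 against 123 CPM, summed). The part of these transcripts in the Zeb1 level was not tested. As RNA came from sorted bulk cells, fewer cells with a transcript and less of it per cell cannot be told apart here or in any result below.

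Zeb2 (ENSMUSG00000026872.10, chromosome 2, 44983632 to 45117395, minus strand) was at 132, 172 and 192 CPM in Foxa2+ CM, at 104, 117 and 149 CPM in Foxa2- CM, 45.9 and 32.7 CPM in endoderm and 291 and 265 CPM in Flk1+ high. Flk1+ high lay above and endoderm below every CM sample. The difference of endoderm from Flk1+ high was -2.83 (SE 0.23, adjusted p = 4.19e-05), from Foxa2+ CM -2.08 (SE 0.22, adjusted p = 0.000121) and from Foxa2- CM -1.65 (SE 0.22, adjusted p = 0.000481). Flk1+ high exceeded Foxa2- CM by 1.17 (SE 0.19, adjusted p = 0.00287) and Foxa2+ CM by 0.75 (SE 0.19, adjusted p = 0.0208). The last call was lost in 5 of 10 fits, those without Foxa2+ CM replicate 1 or 2, Foxa2- CM replicate 2 or either Flk1+ high replicate (adjusted p up to 0.0891), and the other 4 held in all 10. Per length of exon, Zeb2 was at 0.826 to 1.46 times the level of Zeb1 in 9 samples and at 7.93 times in endoderm replicate 1, where Zeb1 was lowest. The library kit does not mark strand, and Zeb2 shares 653 exonic bases with its antisense gene Zeb2os and Zeb1 shares 198 with Gm10125 on the other strand. Reads there cannot be assigned to a strand. Both overlapping genes are among the genes counted, so a count that ignores strand would leave these reads out as ambiguous.

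Twist1 had its highest mean level in Flk1+ high and Twist2 in Foxa2- CM, and both had their lowest in endoderm. Twist1 (ENSMUSG00000035799.5, chromosome 12, 33957671 to 33959829, plus strand) was at 11.6, 13.0 and 12.6 CPM in Foxa2+ CM, at 21.9, 18.9 and 18.6 CPM in Foxa2- CM, 5.68 and 11.96 CPM in endoderm and 29.4 and 19.2 CPM in Flk1+ high. Every Foxa2- CM sample exceeded every Foxa2+ CM sample, and Flk1+ high exceeded Foxa2+ CM and endoderm but overlapped Foxa2- CM. Endoderm was lower than Flk1+ high (-1.46, SE 0.32, adjusted p = 0.00682) and than Foxa2- CM (-1.16, SE 0.30, adjusted p = 0.0165, lost without endoderm replicate 1 at an adjusted p of 0.0806). Flk1+ high was higher than Foxa2+ CM (0.97, SE 0.28, adjusted p = 0.033), a call lost in 6 of 10 fits (any Foxa2+ CM replicate, Foxa2- CM replicate 1 or 2, or Flk1+ high replicate 1; adjusted p up to 0.182). Endoderm did not differ from Foxa2+ CM by the test (-0.49, SE 0.29, adjusted p = 0.227), except without endoderm replicate 2 (adjusted p = 0.0179).

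Twist2 (ENSMUSG00000007805.3, chromosome 1, 91801461 to 91848028, plus strand) was at 2.34, 3.65 and 3.33 CPM in Foxa2+ CM, at 4.33, 4.37 and 8.13 CPM in Foxa2- CM, 0.373 and 0.669 CPM in endoderm and 0.941 and 1.58 CPM in Flk1+ high. The 4 groups did not overlap. Of its 3174 exonic bases 1477 are shared with the antisense gene Gm29100, which is not among the genes counted. As the kit does not mark strand, reads of Gm29100 may have been counted as Twist2, and their part was not tested. Twist2 was 10.5-fold lower in endoderm than in Foxa2- CM (-3.40, SE 0.49, adjusted p = 0.000802) and 5.84-fold lower than in Foxa2+ CM (-2.55, SE 0.49, adjusted p = 0.00345). It was lower in Flk1+ high than in Foxa2- CM (-2.17, SE 0.42, adjusted p = 0.00617) and than in Foxa2+ CM (-1.32, SE 0.42, adjusted p = 0.0488), but the last call held only in the fit without Foxa2- CM replicate 3 among the 10 that left out 1 sample. Per length, Twist1 exceeded Twist2 4.45- to 9.86-fold in CM, 29.7- and 34.9-fold in endoderm and 60.8- and 23.8-fold in Flk1+ high.

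Of the 10 genes Fn1 had the highest mean level per length of exon in each group, at of 77.1, 81.7, 36.7 and 90.0 CPM per kb in Foxa2+ CM, Foxa2- CM, endoderm and Flk1+ high, and Vim had 41.3, 41.6, 32.02 and 46.3 CPM per kb. With the longest transcript as length this order did not hold in endoderm, where Fn1 was at 51.6, Vim at 51.9 and Cdh2 at 53.2 CPM per kb. The deposited counts of both varied less than the depth of the samples. Over the 8 mesoderm samples Fn1 ranged from 13605 to 15229 counts and Vim from 2823 to 3193, a spread of 1.12- and 1.13-fold, while the counts on all genes spread 1.38-fold. Fn1 stood at 1.64 to 1.83 counts per base of its longest transcript and Vim at 0.965 to 1.09. Since duplicates were removed from single-end reads without molecular identifiers, at most 2 reads can remain per start position, 1 on each strand. The part of this ceiling in the level counts was not tested. Fn1 in Flk1+ high exceeded Foxa2+ CM without passing the test (0.22, adjusted p = 0.263). This held after a correction for filled start positions over all exons (0.24, adjusted p = 0.173), while the correction over the longest transcript, added after seeing the data, gave a call (0.31, adjusted p = 0.0459).

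**Figure D2:**
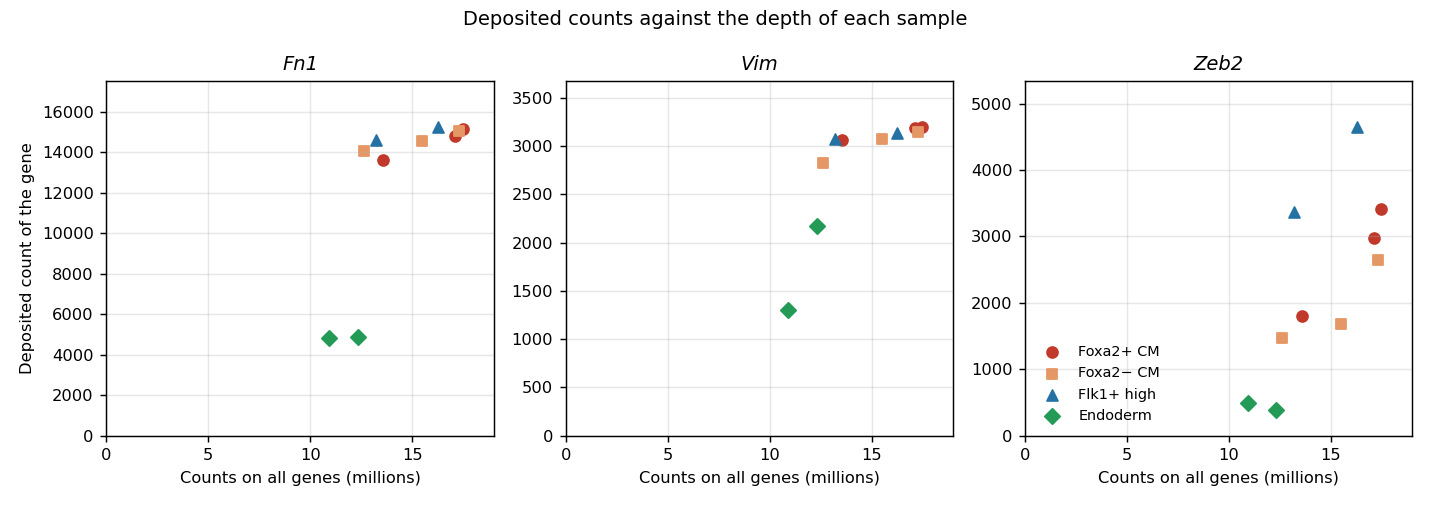
Deposited count of Fn1, Vim and Zeb2 (y axis, linear from 0) against the counts on all genes (x axis, in units of 1000000), 1 point per sample. Over the 8 mesoderm samples the counts of Fn1 (13605 to 15229) and Vim (2823 to 3193) were nearly level, while those of Zeb2 ranged from 1477 to 4642.

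Vim (ENSMUSG00000026728.4, chromosome 2, 13573927 to 13582826, plus strand) encodes vimentin, the intermediate filament of mesenchymal cells. It was at 224, 184 and 180.1 CPM in Foxa2+ CM, at 190.3, 224 and 178 CPM in Foxa2- CM, 122 and 182 CPM in endoderm and 197 and 242 CPM in Flk1+ high. Endoderm replicate 2 lay within the range of the CM samples, and no comparison was called. Endoderm against Flk1+ high came nearest (-0.53, SE 0.20, adjusted p = 0.0656); it was called without endoderm replicate 2 or Flk1+ high replicate 1 (lowest adjusted p = 0.0125), and also after correction for filled start positions. Endoderm against Foxa2+ CM and against Foxa2- CM were likewise called only without endoderm replicate 2 (adjusted p = 0.02 and 0.0244) among the fits that left out 1 sample.

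Fn1 (ENSMUSG00000026193.9, chromosome 1, 71585520 to 71653200, minus strand) encodes fibronectin, a matrix protein on which mesoderm migrates. It was at 995, 856 and 853 CPM in Foxa2+ CM, at 902, 1115 and 848 CPM in Foxa2- CM, 449 and 408 CPM in endoderm and 956 and 1149 CPM in Flk1+ high. The 8 mesoderm samples overlapped, and endoderm lay below all of them. Fn1 was lower in endoderm than in Foxa2+ CM by -1.07 (SE 0.14, adjusted p = 0.000389), than in Foxa2- CM by -1.15 (SE 0.14, adjusted p = 0.000313) and than in Flk1+ high by -1.29 (SE 0.15, adjusted p = 0.000221), and these calls held in all 10 fits that left out 1 sample. The correction for filled start positions gave larger differences. Over all exons these were -1.54 against Foxa2+ CM, -1.62 against Foxa2- CM and -1.78 against Flk1+ high. Over the longest transcript, a correction added after seeing the data, they were -2.04, -2.14 and -2.35. Fn1 shares 292 exonic bases with Apol7d on the other strand.

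Cdh2 (ENSMUSG00000024304.8, chromosome 18, 16588877 to 16809246, minus strand) encodes N-cadherin, the cadherin that commonly replaces E-cadherin in EMT. It was at 154, 153 and 137 CPM in Foxa2+ CM, at 181, 206 and 167 CPM in Foxa2- CM, 238 and 278 CPM in endoderm and 147 and 90.8 CPM in Flk1+ high. Endoderm lay above every other sample. Cdh2 was higher in endoderm than in Flk1+ high by 1.11 (SE 0.20, adjusted p = 0.00226) and than in Foxa2+ CM by 0.80 (SE 0.17, adjusted p = 0.00632, lost without endoderm replicate 2 at an adjusted p of 0.0522). Endoderm exceeded Foxa2- CM without passing the test (0.48, SE 0.17, adjusted p = 0.0661), and passed it on leaving out either Flk1+ high replicate. Cdh2 was lower in Flk1+ high than in Foxa2- CM (-0.63, SE 0.18, adjusted p = 0.034), a call lost in 4 of 10 fits (Foxa2+ CM replicate 2, Foxa2- CM replicate 1 or 2, or Flk1+ high replicate 2; adjusted p up to 0.097).

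Cdh11 (ENSMUSG00000031673.5, chromosome 8, 102632095 to 102785642, minus strand) encodes a cadherin of mesenchymal cells. It was at 308, 287 and 294 CPM in Foxa2+ CM, at 274, 324 and 279.7 CPM in Foxa2- CM, 199 and 174 CPM in endoderm and 128 and 138 CPM in Flk1+ high. The CM groups overlapped, and CM, endoderm and Flk1+ high formed separate ranges in that order. Cdh11 was lower in Flk1+ high than in Foxa2+ CM (-1.16, SE 0.09, adjusted p = 0.000112) and Foxa2- CM (-1.14, SE 0.09, adjusted p = 0.000144). In endoderm it was lower than in Foxa2+ CM (-0.67, SE 0.09, adjusted p = 0.000561) and Foxa2- CM (-0.65, SE 0.09, adjusted p = 0.000774) and higher than in Flk1+ high (0.49, SE 0.10, adjusted p = 0.00471). All 5 calls held in all 10 fits that left out 1 sample.

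Between Foxa2+ CM and Foxa2- CM, the comparison on the 6 CM samples (15284 genes tested), 1 of the 10 genes was called, against 6.48% of all genes tested (3.81% higher and 2.66% lower in Foxa2+ CM). This was Twist1, lower in Foxa2+ CM by 1.59-fold (log2 fold change -0.67, SE 0.12, adjusted p = 0.0172). The call was lost without Foxa2+ CM replicate 1 or 2 or Foxa2- CM replicate 1 or 2 (adjusted p up to 0.0768), and in the model of all 10 samples. The other genes did not pass, with log2 fold changes of -0.42 for Snai1, -1.90 for Snai2, 0.59 for Zeb1, 0.42 for Zeb2, -0.85 for Twist2, -0.32 for Cdh2, -0.01 for Vim, 0.02 for Cdh11 and -0.08 for Fn1. This result depends on whether the replicate numbers are pairs, which the labels do not say. With a replicate block in the fit 2 of the 10 genes were called higher and 5 lower in Foxa2+ CM (2556 of 15284 genes tested were called). Of the 10 genes, Twist1, Twist2 and Cdh2 had CM groups that did not overlap, as had 24.0% of all genes tested.

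The calls within CM changed with the samples used. Without Foxa2- CM replicate 3, 5 genes were called, the added ones being Snai1, Zeb1, Zeb2 and Cdh2. Calls over all genes tested rose as well, from 990 of 15284 to 1701 of 15401. They were 2632 of 15093 without replicate 3 of both groups. Without replicate 3 of both groups 6 were called, with Zeb1 (0.84, adjusted p = 8.98e-13) and Zeb2 (0.48, adjusted p = 4.04e-05) higher in Foxa2+ CM and Snai1 (-0.58, adjusted p = 1.27e-07), Snai2 (-1.01, adjusted p = 0.0289), Twist1 and Cdh2 (-0.32, adjusted p = 0.0119) lower. These p-values rest on 2 samples a group and are those of edgeR's quasi-likelihood test. Replicates 3 were also the highest of their group for the haemato-endothelial markers (1070.2 and 1030.0 CPM in Foxa2+ and Foxa2- CM, against 774 to 867 CPM in the other CM samples, summed), as they were for Zeb1 and Zeb2. Their part in these levels was not tested. The summed level of 7 pluripotency markers was 84.9 to 107 CPM in Foxa2+ CM and 141 to 232 CPM in Foxa2- CM without overlap, with Nanog (-2.41, SE 0.19) and Sox2 (-0.89, SE 0.19) lower in Foxa2+ CM, and the part of these transcripts in the CM differences was not tested.

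In the comparisons of endoderm, which share samples with each other and with those of Flk1+ high, most calls were lower. Against Foxa2+ CM 7 of 10 genes were called (35.0% of all genes tested, 18.3% higher and 16.7% lower), with 6 lower and Cdh2 higher, and the median log2 fold change of the 10 was -0.97 (0.01 over all genes tested). Against Foxa2- CM 8 were called, all lower (30.1% of all genes tested, 16.1% higher and 14.0% lower), with a median of -1.23. Against Flk1+ high 6 were called (32.6% of all genes tested, 16.4% higher and 16.2% lower), with Zeb1, Zeb2, Twist1 and Fn1 lower and Cdh2 and Cdh11 higher. Zeb1, Zeb2 and Fn1 were lower in endoderm in all 3 comparisons. The CPM of the groups did not overlap for 7 of the 10 genes against Foxa2+ CM (63.6% of all genes tested), 9 against Foxa2- CM (57.6%) and 9 against Flk1+ high (62.6%).

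Flk1+ high differed from CM in both directions. Against Foxa2+ CM 5 genes were called (22.8% of all genes tested, 11.6% higher and 11.2% lower), Zeb2 and Twist1 higher and Snai1, Twist2 and Cdh11 lower. Leaving out 1 sample gave 2 to 5 calls, with 2 without Foxa2+ CM replicate 1 or 2 or Foxa2- CM replicate 2 and 3 without Foxa2+ CM replicate 3, Foxa2- CM replicate 1 or either Flk1+ high replicate, and leaving out replicate 3 of both CM groups gave 3. Against Foxa2- CM 5 were called (21.6% of all genes tested, 11.3% higher and 10.3% lower), Zeb2 higher and Snai1, Twist2, Cdh2 and Cdh11 lower. The median log2 fold change of the 10 genes was -0.07 and -0.25 in these comparisons (0.03 and 0.02 over all genes tested), and the groups did not overlap for 5 genes against Foxa2+ CM (8086 of 16180 genes tested) and 7 against Foxa2- CM (46.0%).

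**Figure D3:**
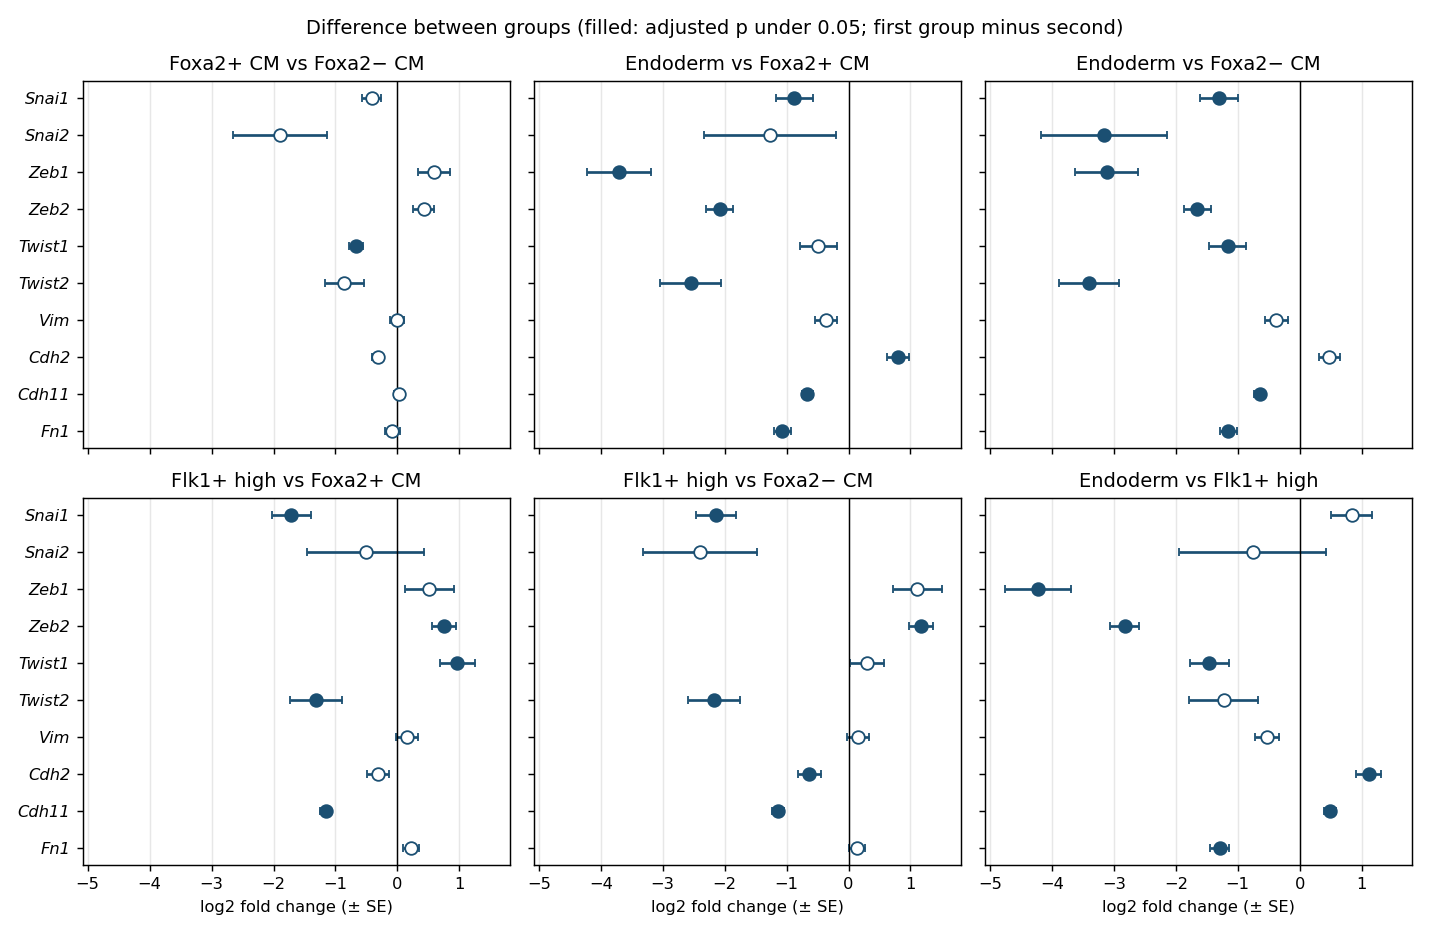
Log2 fold change of the 10 EMT genes in the 6 comparisons (x axis, first group minus second) with the standard error as bars, worked back from the test statistic. Filled points passed an adjusted p of 0.05. Zeb1 and Zeb2 lay left of 0 in the 3 endoderm panels (down to -4.23) and Cdh2 right of 0, while between the CM groups Twist1 alone was filled.

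The cadherins showed that Cdh2 and Cdh1 were both high in endoderm. Cdh1 (E-cadherin, ENSMUSG00000000303.6) was at 11.6, 13.5 and 9.14 CPM in Foxa2+ CM, at 16.6, 16.5 and 16.7 CPM in Foxa2- CM, 545 and 493 CPM in endoderm and 12.5 and 11.7 CPM in Flk1+ high. It was 45.6-fold higher in endoderm than in Foxa2+ CM (5.51, SE 0.13, adjusted p = 8.86e-08). Cdh1 had 5848 and 5890 counts over 4574 exonic bases in endoderm and 148 to 296 counts in the other samples. The part of the ceiling on reads per start position in this difference, and in the ratio that follows, was not tested. Per length of exon, Cdh2 was at 0.247 and 0.32 times the level of Cdh1 in endoderm and at 4.42 to 8.47 times in the 8 mesoderm samples, so the ratio turned over while Cdh2 itself was highest in endoderm (31.9 CPM per kb, against 14.8 to 22.9 as group means elsewhere).

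Of a list of 16 further cadherins that includes Cdh1, 14 were tested in the comparisons of all samples. Against Foxa2+ CM 6 were higher and 4 lower in endoderm (18.3% and 16.7% of all genes tested), including Cdh3 (P-cadherin, 4.08, SE 0.22) as higher and Cdh8 (-5.60, SE 0.39) and Cdh6 (-4.89, SE 0.43) as lower. Against Flk1+ high 7 were higher and 5 lower in endoderm (16.4% and 16.2% of all genes tested), among them the endothelial Cdh5 (VE-cadherin, -7.14, SE 1.54, adjusted p = 0.00626). Between the CM groups, where Cdh2 and Cdh11 did not pass the test, Cdh6 was higher (1.79, SE 0.14, adjusted p = 0.00132) and Cdh3 lower (-2.25, SE 0.22, adjusted p = 0.00245) in Foxa2+ CM. The 3 Foxa2+ CM samples had 63.1, 73.8 and 64.4 CPM of Cdh6, and the 3 Foxa2- CM samples 16.2, 18.6 and 23.4 CPM. For Cdh3 the levels were 5.48, 6.13 and 7.84 CPM in the Foxa2+ CM samples, against 23.7, 30.9 and 38.4 CPM in the Foxa2- CM samples. The CM groups did not overlap for either. Of 6 catenin genes, whose products act in cadherin complexes, 3 were higher in endoderm than in Foxa2+ CM (18.3% of all genes tested). These were Ctnnb1, Ctnnd2 and Jup.

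**Figure D4:**
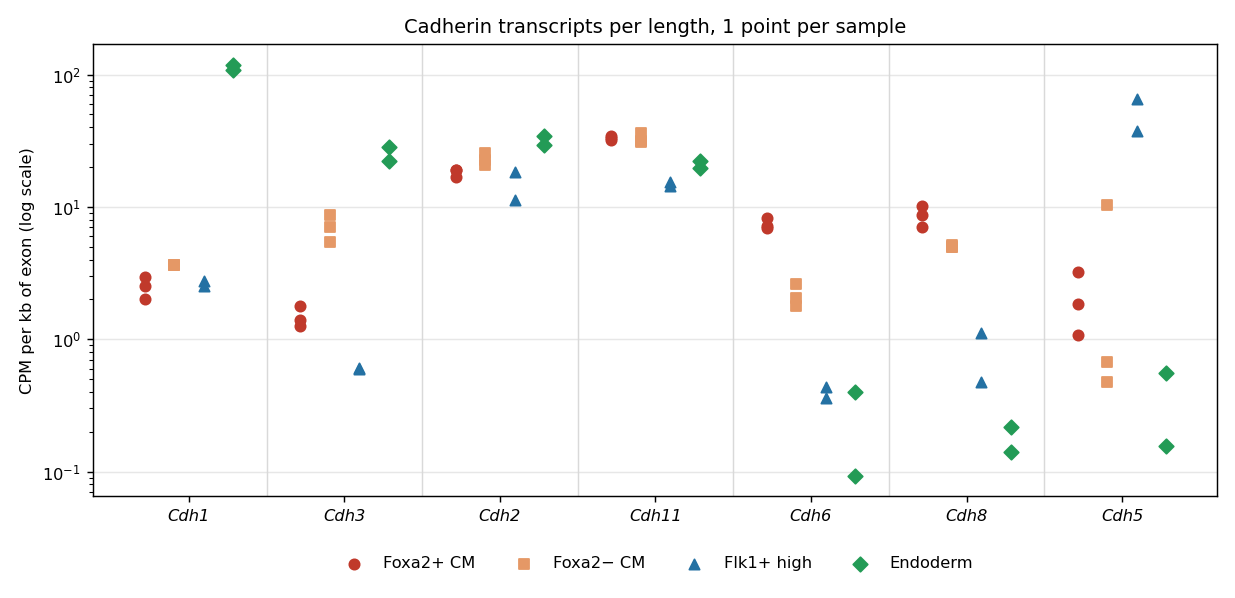
Level of 7 cadherin genes in CPM per kb of exon on a log scale (y axis), 1 point per sample, with the 4 groups side by side within each gene (x axis). Endoderm had both Cdh1 (mean 113 CPM per kb) and Cdh2 (31.9), Flk1+ high had Cdh5 (51.6), and Cdh6 and Cdh3 separated the CM groups in opposite directions.

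Most epithelial genes, of a list of 27 that holds junction, polarity and keratin genes and their regulators, were higher in endoderm. Against Foxa2+ CM 21 of 27 were higher and 2, Krt19 and Dsp, were lower (18.3% and 16.7% of all genes tested), and the median log2 fold change was 2.84 (0.01 over all genes tested). The same counts were found against Foxa2- CM, and against Flk1+ high 24 were higher. Cldn6 was at 3.73, 5.03 and 4.06 CPM in Foxa2+ CM and 154 and 169 CPM in endoderm (5.23, SE 0.36). Its endoderm counts were 1649 and 2026 over 1721 exonic bases, and the part of the ceiling on reads per start position was not tested. Ovol2, which encodes a zinc finger repressor of Zeb1, was at 18.5 and 36.1 CPM in endoderm and at most 0.521 CPM in the other samples. Marveld3, a tight junction gene, was at 17.7 and 14.6 CPM in endoderm and at most 0.394 CPM elsewhere. Epcam was at 147 and 127 CPM in endoderm against 23.8 to 39.1 CPM in CM and 12.8 and 9.92 CPM in Flk1+ high. Leaving out 1 sample gave 19 to 25 higher in these 3 comparisons. The pluripotency markers also moved with these genes, with a summed level of 581 and 549.9 CPM for 7 markers in endoderm and 42.9 to 232 CPM elsewhere, and their part was not tested.

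Within the mesoderm 11 of 27 epithelial genes were lower and 2, Cldn4 and Ocln, higher in Flk1+ high than in Foxa2+ CM (11.2% and 11.6% of all genes tested). Against Foxa2- CM 12 were lower and 3 higher (10.3% and 11.3% of all genes tested). Epcam was lower in both (-1.38, SE 0.21, and -1.52, SE 0.21). Esrp1 and Esrp2, which encode epithelial splicing regulators, were lower than in Foxa2+ CM by -2.08 (SE 0.50) and -2.05 (SE 0.32), and Krt19 by -2.64 (SE 0.35). Leaving out 1 sample gave 7 to 12 and 9 to 12 lower in these comparisons, the 7 without Flk1+ high replicate 2. Between the CM groups (3.81% higher and 2.66% lower over all genes tested) 1 of 23 tested was higher in Foxa2+ CM, Crb3 (1.39), and 1 lower, Grhl2 (-1.10, SE 0.25, adjusted p = 0.0422). Without replicate 3 of both groups these counts were 5 and 3 (1582 and 1050 of 15093 over all genes tested). Cdh1 (-0.54, SE 0.16, adjusted p = 0.0944) and Epcam (-0.14, SE 0.17, adjusted p = 0.801) did not pass.

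**Figure D5:**
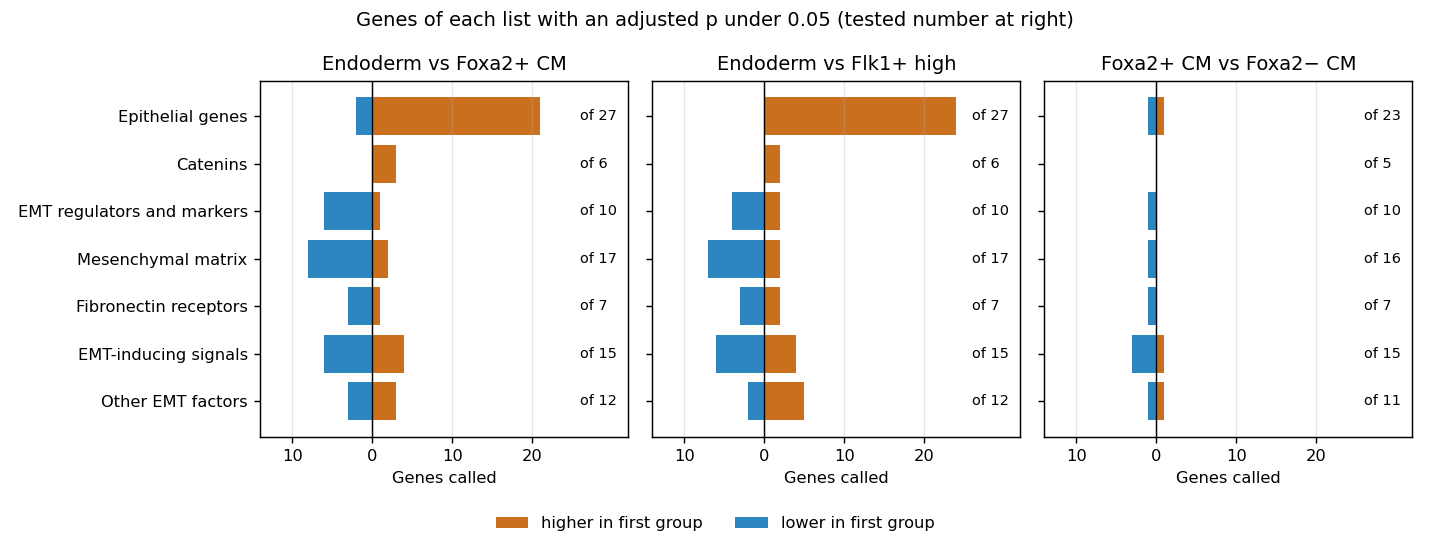
Number of genes of each list with an adjusted p below 0.05 (x axis), higher to the right and lower to the left of 0, with the number tested at the right of each bar. In endoderm 21 of 27 and 24 of 27 epithelial genes were higher against Foxa2+ CM and Flk1+ high, while 8 and 7 of 17 matrix genes were lower. Between the CM groups at most 4 genes of any of these lists were called.

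Of 22 mesenchymal matrix genes 17 were tested, and 8 were lower and 2, Mmp14 and Thbs2, higher in endoderm than in Foxa2+ CM (16.7% and 18.3% of all genes tested), with a median of -0.92. Vcan (versican) was at 230, 323 and 324 CPM in Foxa2+ CM, at 268, 319 and 349 CPM in Foxa2- CM, 82.4 and 84.2 CPM in endoderm and 306 and 616 CPM in Flk1+ high. Fbn1 (fibrillin 1) was lower in endoderm than in Flk1+ high by -3.13 (SE 0.41) and higher in Flk1+ high than in Foxa2+ CM by 1.36 (SE 0.33). Leaving out 1 sample gave 3 to 9 lower against Foxa2+ CM, with 3 lower and 3 higher without endoderm replicate 1, and 5 lower without endoderm replicate 2 or Foxa2+ CM replicate 3, and 4 lower against Flk1+ high on leaving out either endoderm replicate. Of 7 fibronectin receptor genes 3 were lower and 1 higher in endoderm than in Foxa2+ CM (16.7% and 18.3% of all genes tested). Itga5 (-0.77, SE 0.17) and Itgav (-0.76, SE 0.12), which encode integrin chains that bind fibronectin, were lower, as was Itgb3 (-3.79, SE 0.87). Itga8 was higher (4.73, SE 0.64). Against Foxa2- CM 0 receptor genes were higher and 3 lower in endoderm (16.1% and 14.0% of all genes tested). Itga8 was also the receptor gene called between the CM groups, at 0.585, 0.521 and 1.47 CPM in the Foxa2+ CM samples against 6.93, 8.49 and 9.03 CPM in the Foxa2- CM samples (-3.21, SE 0.36, adjusted p = 0.00428).

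Of 9 mesenchymal cytoskeleton genes tested 4 were higher in endoderm than in Foxa2+ CM (18.3% of all genes tested), and 2 without endoderm replicate 1. Against Foxa2- CM 1, Nes, was higher and 1, Tpm1 (-0.40), lower in endoderm (16.1% and 14.0% of all genes tested). Acta2, the smooth muscle actin gene, was lower in Foxa2+ CM than in Foxa2- CM (-2.17, SE 0.22, adjusted p = 0.00305) and higher in endoderm than in Foxa2+ CM (2.29, SE 0.34), and Nes (nestin) was higher in endoderm than in every other group (0.82 to 1.52).

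Of 15 tested genes for signals that induce EMT, 14 were called in the test over all 4 groups (44.2% of all genes tested). Against Foxa2+ CM 4 were higher and 6 lower in endoderm (18.3% and 16.7% of all genes tested). Bmp4 was at 139, 129 and 148 CPM in Foxa2+ CM, at 123, 144 and 143 CPM in Foxa2- CM, 5.68 and 3.51 CPM in endoderm and 72.7 and 65.2 CPM in Flk1+ high. Bmp4 protein was added to the cardiac cultures, and these are the levels of the cells' own transcript. Wnt5a (-4.69, SE 0.28) and Tgfb2 (-3.75, SE 0.57) were also lower in endoderm, and Fgf8, a signal of the primitive streak, was higher (1.79, SE 0.22). Fgf8 was at 2.89 and 5.83 CPM in Flk1+ high and 32.5 to 49.97 CPM in CM (-3.18, SE 0.28, against Foxa2+ CM). Between the CM groups Met was higher (1.11, SE 0.21) and Tgfb1, Wnt5a and Fgf4 were lower in Foxa2+ CM (3.81% and 2.66% of all genes tested). At most 1 of these 4 calls was made without replicate 1 or 2 of either group.

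Other EMT-linked transcription factors were called in both directions. Sox9 was at 38.7 to 48.7 CPM in CM, 4.29 and 8.62 CPM in endoderm and 5.96 and 7.80 CPM in Flk1+ high, and was lower in each of the latter (-2.77, SE 0.27, and -2.69, SE 0.26, against Foxa2+ CM). Gsc (goosecoid) and Foxq1 were lower in Flk1+ high than in Foxa2+ CM (-3.98, SE 0.49, and -3.61, SE 0.51), and Foxc2 was higher (2.74, SE 0.39). Between the CM groups Foxq1 was higher in Foxa2+ CM (1.35, SE 0.24, adjusted p = 0.0185), at 61.0, 52.2 and 33.1 CPM against 24.0, 18.3 and 15.2 CPM. In all, 3 of 12 were higher and 3 lower in endoderm than in Foxa2+ CM (18.3% and 16.7% of all genes tested), and 6 and 4 on leaving out either Flk1+ high replicate. Of 7 partners and inhibitors of Twist proteins, 2 were higher and 1, Id3, lower in endoderm than in Foxa2+ CM (18.3% and 16.7% of all genes tested). Tcf3 (0.29, SE 0.07) and Tcf12 (0.44, SE 0.06), which encode E proteins, were the higher ones. Of 10 corepressors of Snail and Zeb proteins 5 were higher and 3 lower in that comparison (18.3% and 16.7% of all genes tested). Among them Ctbp2 was higher (0.74, SE 0.07) and Rcor1 lower (-0.57, SE 0.10). Without endoderm replicate 1 the higher ones were 2.

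Across the 10 samples the levels of the 10 genes fell into different patterns, given here as Pearson's r of log2 CPM without a test, since samples of 1 group share their cell type. Zeb1 and Zeb2 had an r of 0.90, and Snai1 and Cdh11 of 0.92, while Snai1 had an r of -0.02 with Zeb1 and -0.08 with Twist1. With Cdh1, r was -0.94 for Zeb1, -0.90 for Zeb2, -0.94 for Fn1, -0.23 for Snai1 and 0.77 for Cdh2. With Epcam, r was -0.97 for Zeb2 and 0.89 for Cdh2. Of the 12134 genes averaging 50 or more counts, those most like each gene in level were, for Snai1, Wnt5b, Krt222 and Fah (r of 0.97). For Snai2 they were Svep1, Rbms3 and Adamts2 (0.91 to 0.92), for Zeb1 Kcnq5, Gadd45g and Rwdd2b (0.99), and for Zeb2 Hpse, St8sia1 and Ehbp1l1 (0.98 to 0.99). For Twist1 they were Oaf, Mettl13 and Noa1 (0.93 to 0.97), for Twist2 Dennd2a, Wnt4 and Dusp9 (0.97 to 0.98), and for Vim Tmem248, Mrpl57 and Sart1 (0.92 to 0.95). For Cdh2 they were Etv5, Sp5 and Rem2 (0.98), for Cdh11 Gna14, Trip6 and Tle3 (0.97 to 0.98), and for Fn1 Dctd, Myc and Arpc1b (0.98 to 0.99).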

How the data were processed

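RNAseq libraries were made with TruSeq RNA v2, a kit that does not mark strand, from RNA of sorted cells. Per the labels and the study's methods, single-end reads of 50 nt were aligned by the authors with STAR (2.5.0a) against mm10, duplicates were removed with Picard and the rest counted with HTSeq (0.6.0). The deposited values are these raw counts for each gene. Their strand setting and annotation release are not given in the sources used here. Reads on genes made up 72.2% to 80.5% of those counted, and rows for reads on no gene were left out. Replicates of every group differed by more than sampling noise in a chi-square test over genes.

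Counts were analysed with edgeR 4.0.16 in R 4.3.3 (TMM, filterByExpr, quasi-likelihood test, Benjamini-Hochberg adjustment over all genes tested). The CM groups were compared on the 6 CM samples, and the other comparisons used all 10 samples in 1 model, in which groups of 2 borrow the spread of the other groups. Standard errors were worked back from log2 fold changes and their F statistics. DESeq2 1.42.0 was an alternative. The edgeR steps were tested on simulated data. Symbols and exons came from GENCODE M21. The 10 genes and all lists were chosen with earlier results of these data known. Of each list, up to 4 called genes with the largest change and a mean of at least 50 counts were named, with Cdh1 and Epcam. Genes named where 5 or fewer were called, the cadherins of the plot and the levels of Tek, Itga8, Acta2, Cdh6 and Cdh3 were chosen after their values were seen.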

Additional observations from a re-analysis of the deposited data

How the results depend on the processing

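Of the 6 comparisons, the count of the 10 genes called between Foxa2+ CM and Foxa2- CM depended most on the processing. It was 1, and became 2 with DESeq2, with no expression filter and with either correction for filled start positions, 0 with all 10 samples in 1 model or a limit of 2-fold, and 6 without replicate 3 of both CM groups, an alternative chosen after seeing the data, as was the correction by longest transcript. The limit of 2-fold left 4 genes of 7 for endoderm against Foxa2+ CM and 3 of 5 for Flk1+ high against Foxa2+ CM, which also fell to 3 without replicate 3 of both CM groups. Leaving out 1 sample gave 0 to 5 calls between the CM groups, 6 to 7 for endoderm against Foxa2+ CM, 6 to 9 against Foxa2- CM and 6 to 8 against Flk1+ high, 2 to 5 for Flk1+ high against Foxa2+ CM, 4 to 6 against Foxa2- CM, and 8 to 9 over all 4 groups. Calls over all genes tested between the CM groups also moved, from 990 of 15284 to 2632 of 15093 without replicate 3 of both groups. Leaving out 1 sample gave 234 to 1701 of them. The cause of these changes was not tested.

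Directions that changed belonged to small or uncalled differences. Snai2 in Flk1+ high against Foxa2+ CM (-0.51) became 0.34 with the replicate block and 0.0073 without replicate 3 of both CM groups, and ranged from -1.27 to 0.0275 when 1 sample was left out. When 1 sample was left out, between the CM groups Vim ranged from -0.12 to 0.088, Cdh11 from -0.0447 to 0.0947 and Fn1 from -0.16 to 0.0394. For Flk1+ high, Vim ranged from -0.0228 to 0.31 against Foxa2+ CM and from -0.0202 to 0.30 against Foxa2- CM, where Twist1 ranged from -0.041 to 0.55 and Fn1 from -0.0161 to 0.27.

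Deviations from the group means had an r of 0.07 to 0.54 between CM samples of the same number and of at most 0.25 between other CM pairs, and 5 of 6 samples correlated best with their own number, a hint from the data that they may be paired. Because the labels do not say so and not every r was over 0.1, the numbers were not taken as pairs. The limit of 0.1 was not part of the planned design. A replicate block in the fit gave 7 genes called between the CM groups, Zeb1 and Zeb2 as higher in Foxa2+ CM and Snai1, Snai2, Twist1, Twist2 and Cdh2 as lower (adjusted p of 0.000697 to 0.021 for the 6 added genes, edgeR). Over all genes tested it called 2556 of 15284, against 990 without the block. With the block, Twist1 in Flk1+ high against Foxa2+ CM was not called (adjusted p = 0.0646), and Zeb1 in Flk1+ high against Foxa2- CM (0.012) and Vim in endoderm against Flk1+ high (0.0409) were. The lengths used per kb mattered too: with the longest transcript in place of all exons, the mean level over the 10 samples was 13.3 in place of 7.53 CPM per kb for Zeb1 and 16.5 in place of 7.53 for Zeb2. Depth limits Snai2 and Twist2, with 3 to 215 and 4 to 144 counts per sample. The ceiling on reads per start position was not tested as a cause of the level counts of Fn1 and Vim.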
